A study of Mus musculus with 5 samples.

Results

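Red-cell barcodes are droplet barcodes with few genes and a globin-dominated content. They were chosen by 2 measured values: under 500 genes, and over 50% of unique molecular identifiers (UMIs, counts of single captured RNA molecules) from genes whose symbols start with Hba, Hbb or Hbq. The rule found 19791 such barcodes among the 50355 in the deposited matrices. Gene number and total globin share are therefore descriptions here, without a test. How the globin UMIs divide among the globin genes, and which other transcripts remain, were not used by the rule.

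Mature red cells of mammals lose their nucleus and then, as reticulocytes, clear ribosomes, mitochondria and most RNA. The messenger RNA that stays is mostly for the alpha-like and beta-like chains of haemoglobin, beside haem synthesis enzymes, membrane skeleton proteins and factors of late maturation. In mouse, the first red cells come from the yolk sac and carry embryonic chains (Hba-x, Hbb-y and Hbb-bh1). Red cells made later in the fetal liver carry the adult chains (Hba-a1, Hba-a2, Hbb-bs and Hbb-bt) and make up nearly all blood in the lung before birth.

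The data are 10x Genomics 3′ single-cell libraries of dissociated whole lungs, 1 library for each of 5 mouse embryos at E18.5 (embryonic day). The genotypes were Zswim8+/- (Het, 2 embryos) and Zswim8-/- (KO, 3 embryos), and there was no wild-type group. Zswim8 encodes the part of a Cullin ubiquitin ligase that recognises targets, and the ligase is known for microRNA decay. Every lung had the same preparation, a 45 minute digestion and a 1 minute red blood cell lysis step, so the red-cell barcodes are what remained after lysis.

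Red-cell barcodes numbered 6596 and 4195 in the libraries of Het replicates 1 and 2, and 1865, 3972 and 3163 in those of KO replicates 1, 2 and 3. They were 48.7% and 40.7% of all barcodes in Het, and 21.4%, 44.4% and 35.7% in KO. The means were 44.7% ± 5.64 (SD, n = 2) and 33.8% ± 11.6 (SD, n = 3), and the groups overlapped (exact permutation test, two-sided, p = 0.4). With 2 against 3 libraries the smallest p this test can give is 0.1, so no value per library could pass 0.05 by it. The other barcodes were mainly 19253 kept cells (at least 500 genes, at most 15% mitochondrial and at most 50% globin UMIs), which serve as the comparison below. A further 280 barcodes had over 50% globin UMIs with 500 genes or more, a set with nucleated erythroid cells, and 6467 had under 500 genes and at most 50% globin. The rest had at least 500 genes, at most 50% globin and over 15% mitochondrial UMIs.

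The library of KO replicate 1 stood apart. It had the fewest red-cell barcodes and 2782 barcodes with under 500 genes and at most 50% globin, against 693 to 1168 in the other 4 libraries. Those 2782 had a median of 60.8% mitochondrial UMIs, against 12.8% to 29.3% in the others. Its red-cell barcodes had a mitochondrial share of 16.3% of the UMIs outside the globins, against 34.0% to 45.2% elsewhere. Gene levels in its red-cell barcodes correlated with those of the other libraries at 0.879 to 0.916 (Pearson, log2 scale, across genes), against 0.927 to 0.965 among the other 4. By Y-linked UMIs, KO replicates 1 and 2 were female and the other 3 embryos male, so no Het library was female. In the kept cells Zswim8 was at 37.7 and 39.0 UMIs per 1000000 UMIs outside the globins (UPM) in Het, and at 39.3, 39.6 and 41.4 in KO. These are tags from the 3′ end, the labels do not give the deleted part, and so the tags do not check the genotypes. Of the red-cell barcodes, 19 to 68 per library carried a barcode sequence that also occurred in another library.

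**Figure D1:**
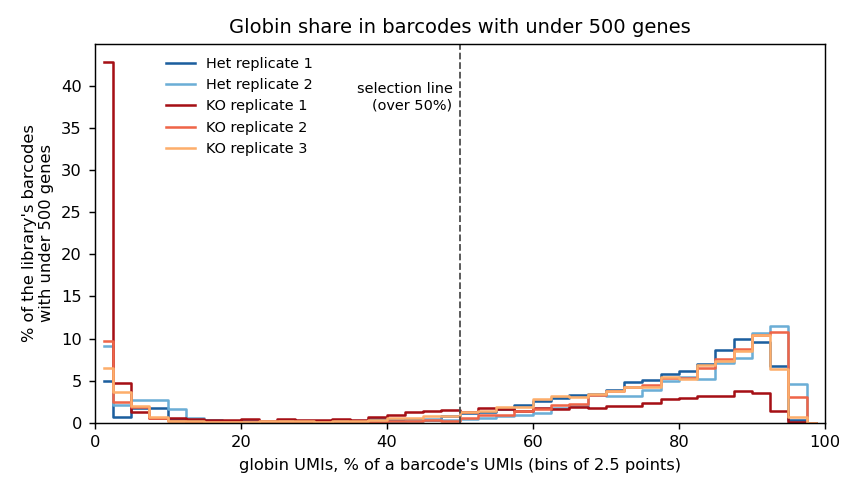
Share of globin among a barcode's UMIs (x axis, percent, bins of 2.5 points) in all barcodes with under 500 genes, as a percent of each library's such barcodes (y axis). Lines are the 5 libraries and the dashed line is the selection line at 50%. Most barcodes lie either near 0 or above 50%, and the library of KO replicate 1 has the highest peak near 0.

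In 4 of the libraries the selection line lay where barcodes were few, on the rising side of the globin-rich peak and not at its lowest point. Between 40% and 50% globin there were 144 and 54 barcodes with under 500 genes in Het, and 246, 50 and 109 in KO. Between 50% and 60% there were 477 and 151 in Het, and 285, 180 and 245 in KO. In the library of KO replicate 1 both sides of the line were filled to a similar degree. The median globin share was 82.1% and 85.9% in Het and 78.1%, 84.6% and 82.1% in KO. Globin genes chose these barcodes and so do not check the red-cell label. Of genes the rule did not use, the erythroid haem enzyme gene Alas2 was at 261 to 624 times its level in kept cells, as given below.

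The globin genes whose UMIs carry the description lie in 2 clusters. The alpha-like genes Hba-x (chr11:32276400-32278116), Hba-a1 (chr11:32283511-32284465) and Hba-a2 (chr11:32296489-32297298) are on the plus strand in the GENCODE M21 annotation of GRCm38, the assembly also named mm10. The beta-like genes Hbb-bt (chr7:103812524-103813996), Hbb-bs (chr7:103826534-103828096) and Hbb-y (chr7:103851749-103853216) are on the minus strand. The 120 bases before the RefSeq start of each gene (build GRCm38.p6, gene strand, 5′ to 3′) are shown as a description. RefSeq and GENCODE starts differ, so the windows of Hba-a1, Hba-x and Hbb-bs lie inside the gene spans given above. Those of Hba-a2, Hbb-bt and Hbb-y overlap their spans in part. The adult genes made nearly all globin UMIs of these barcodes and the embryonic genes almost none. Whether these sequences bear on that was not tested. Capitals mark the CCAAT box, the CACCC box and the TATAA box, each searched on both strands with overlaps allowed. The CACCC box is the kind of element bound by the erythroid factor Klf1, and the other 2 are general promoter elements.
Hba-a1, chr11:32283552-32283671: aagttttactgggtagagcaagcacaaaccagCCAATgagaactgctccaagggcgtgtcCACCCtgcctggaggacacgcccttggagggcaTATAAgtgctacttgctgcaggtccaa
Hba-a2, chr11:32296372-32296491: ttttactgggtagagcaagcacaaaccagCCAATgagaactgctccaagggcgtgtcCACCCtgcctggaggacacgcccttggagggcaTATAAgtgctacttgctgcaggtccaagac
Hbb-bs, chr7:103827929-103828048: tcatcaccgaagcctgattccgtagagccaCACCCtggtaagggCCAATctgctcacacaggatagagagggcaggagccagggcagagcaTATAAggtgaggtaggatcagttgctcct
Hbb-bt, chr7:103813924-103814043: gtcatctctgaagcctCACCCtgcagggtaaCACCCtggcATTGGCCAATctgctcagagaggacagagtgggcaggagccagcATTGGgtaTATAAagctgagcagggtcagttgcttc
Hba-x, chr11:32276480-32276599: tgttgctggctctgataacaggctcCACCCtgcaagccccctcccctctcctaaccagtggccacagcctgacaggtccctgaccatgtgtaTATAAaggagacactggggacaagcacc
Hbb-y, chr7:103853208-103853327: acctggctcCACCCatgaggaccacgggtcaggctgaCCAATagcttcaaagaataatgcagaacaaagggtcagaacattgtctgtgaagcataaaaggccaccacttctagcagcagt

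The 4 adult windows held all 3 motifs, Hba-x held no CCAAT and Hbb-y no TATAA. Among all 32851 RefSeq promoter windows of this length, 21.3% held CCAAT, 31.7% CACCC, 11.8% TATAA and 0.688% all of them. Each match is a description of letters and not of binding. The 250 bases before the start were 98.8% identical between Hba-a1 and Hba-a2, and 74.0% between Hbb-bs and Hbb-bt. The coding parts of Hba-a1 and Hba-a2 were 99.8% identical and the 74 bases after the stop codon that both transcripts have were 100.0% identical. Reads from their 3′ ends are hard to assign, so the split between Hba-a1 and Hba-a2 is uncertain. Hbb-bs and Hbb-bt were 99.8% identical in the coding part but 71.8% identical after the stop codon, where 3′ libraries read.

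Hbb-bs, an adult beta chain gene, gave the most globin UMIs, at 49.1% and 49.5% of globin UMIs in Het and 48.7%, 48.6% and 49.4% in KO. Hba-a1 followed at 22.0% and 21.9% in Het and 23.0%, 21.8% and 20.4% in KO. Hba-a2 stood at 18.48% and 18.04% in Het and 17.16%, 17.80% and 18.52% in KO. Het and KO overlapped for all 3, with differences of -0.39, -0.20 and -0.43 percentage points (exact permutation p = 0.3, 0.7 and 0.5).

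Hbb-bt, the second adult beta gene, was at 10.4% and 10.6% of globin UMIs in Het and at 11.1%, 11.7% and 11.7% in KO. The groups did not overlap. The means were 10.5% ± 0.187 (SD, n = 2) and 11.5% ± 0.344 (SD, n = 3), a difference of 1.02 percentage points. The exact permutation test gave its smallest p, 0.1, or 0.6 adjusted over the 6 measures of globin makeup. A p under 0.05 was out of reach with this number of libraries, so the test does not decide on the difference. In the kept cells, whose globin UMIs came to 0.614% to 1.61% of the total, Hbb-bt was at 9.52% and 9.26% in Het and 10.7%, 9.92% and 11.4% in KO. The order of the 2 groups was the same there, and those UMIs come from the same 5 suspensions.

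**Figure D2:**
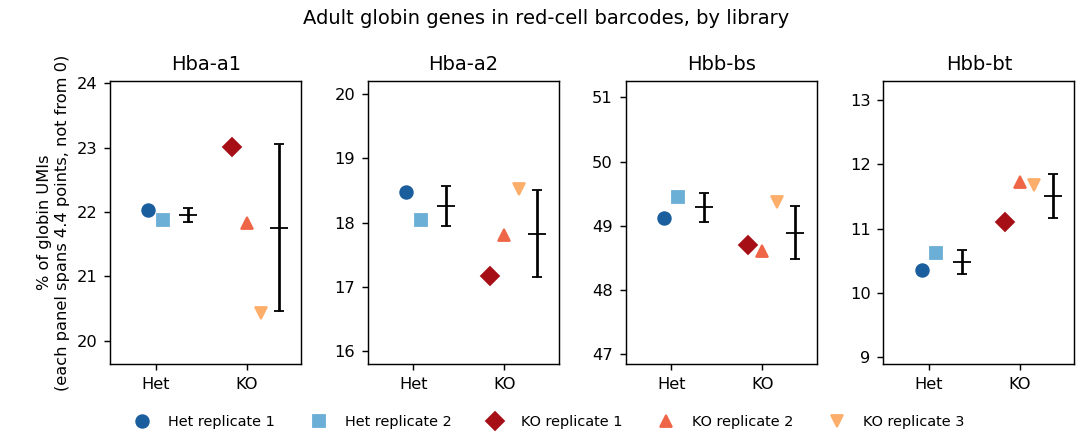
Share of each adult globin gene among globin UMIs of red-cell barcodes (y axis, percent, each panel spanning 4.4 points and not starting at 0) in Het and KO. Points are libraries, and bars are the group mean with 1 SD. For Hbb-bt the KO libraries lie at 11.1% to 11.7%, above the Het libraries at 10.4% and 10.6%, while the other 3 genes overlap.

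Single barcodes varied far more than libraries. Within a library the 5th and 95th percentiles of the Hbb-bt share were 1.76% and 15.8% in Het replicate 1 and 2.01% and 17.1% in KO replicate 2. The alpha-like to beta-like UMI ratio was 0.681 and 0.665 in Het and 0.672, 0.657 and 0.638 in KO, with overlapping groups (exact permutation p = 0.4). The ratio compares UMI sums and not chains of haemoglobin.

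Embryonic globin (Hba-x, Hbb-y and Hbb-bh1) was a trace: 0.00530% and 0.00204% of globin UMIs in Het, and 0.00377%, 0.0312% and 0.00272% in KO. The library of KO replicate 2 was highest, with 2346 UMIs of Hbb-y (the embryonic beta chain epsilon-y) and 887 of Hba-x (the embryonic alpha chain zeta), and without it the KO mean was below the Het mean. Hbb-bh1, another embryonic beta-like gene, had 42 and 1 UMIs in Het and 6, 5 and 5 in KO. Hbb-bh2 had 0 of 51354920 globin UMIs, which allows a share of up to 5.84e-06% for counting error alone. The theta-like genes Hbq1a and Hbq1b had 84 to 198 and 12 to 24 UMIs per library.

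Most embryonic UMIs of the red-cell barcodes came from 11 barcodes in which embryonic genes made over 10% of globin UMIs. Het replicates 1 and 2 had 1 each, KO replicate 2 had 9, and KO replicates 1 and 3 had 0. The 9 of 3972 are 0.227% (95% exact binomial interval 0.104 to 0.430, counting error only). The 0 of 1865 and 0 of 3163 barcodes allow shares of up to 0.161% and 0.0948%. These barcodes held 87.3% and 80.3% of the embryonic UMIs in the 2 Het libraries and 83.7% in KO replicate 2. Their median was 968 UMIs, 161 genes and 50.4% embryonic globin. Their globin share of all UMIs was 51.8% to 80.4%, with a median of 60.6%. Hbb-y with Hbb-bh1 made a median of 92.4% of their beta-like UMIs (range 40.9% to 97.7%), while Hba-x made a median of 22.0% of their alpha-like UMIs (range 1.53% to 57.1%). By these medians most beta-like UMIs were embryonic, while most alpha-like UMIs were those of Hba-a1 and Hba-a2. The counts of such barcodes hold only for the side of the selection line with over 50% globin. On the other side, barcodes with under 500 genes held 644 and 63 Hbb-y UMIs in Het, and 1405, 256 and 353 in KO. Red-cell barcodes held 493 and 122 in Het, and 104, 2346 and 68 in KO.

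Outside those 11 barcodes, the embryonic share of globin UMIs was 0.000673% and 0.000403% in Het, and 0.00377%, 0.00509% and 0.00272% in KO. The groups did not overlap, with a KO to Het ratio of means of 7.18 (exact permutation p = 0.1, adjusted p = 0.2 over 3 measures). With the 11 barcodes kept in, the groups overlapped (exact permutation p = 0.8). Of the remaining barcodes, 10 and 6 in Het and 13, 24 and 9 in KO held 2 or more embryonic UMIs. Those with 1 numbered 50 and 16 in Het, and 55, 66 and 49 in KO. The highest embryonic share of a remaining barcode was 2.98% and 0.808% in Het, and 4.30%, 8.43% and 6.21% in KO. With each barcode thinned to 1300 UMIs, 0.535% and 0.345% of the remaining red-cell barcodes had an embryonic UMI in Het, and 1.99%, 1.34% and 0.876% in KO (exact permutation p = 0.2). Before thinning, those shares were 1.05% and 0.595% in Het and 3.92%, 2.35% and 2.07% in KO. In kept cells, which should lack these genes, the thinned shares were 0.286% and 0.148% in Het, and 0.925%, 0.471% and 0.363% in KO, also without overlap (exact permutation p = 0.2). The median depth before thinning was 2968 to 3361 UMIs in these red-cell barcodes and 10942 to 13306 in the kept cells. None of the 3 measures could pass 0.05 by this test, and the source of this trace was not tested. The choice of these 3 measures followed a look at the data.

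Red-cell barcodes were shallow and even in depth, with medians of 2609 and 2564 UMIs in Het and 2328, 2622 and 2508 in KO (exact permutation p = 0.5). The median number of UMIs outside the globins was 424.5 and 321 in Het, and 473, 344 and 420 in KO. The median gene number was 185 and 145 in Het and 269, 151 and 189 in KO. At 1300 UMIs per barcode, with 409 to 1176 shallower barcodes per library left out, the gene medians were 102 and 77 in Het and 154, 81 and 101 in KO. The library of KO replicate 1 was highest in each of the gene and non-globin values, and the groups overlapped throughout (exact permutation p = 0.4 to 0.6).

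Outside the globins, the levels below are in UPM, the UMIs of a gene per 1000000 UMIs outside the globins, in red-cell barcodes. Gene by gene, they are set against the same level in kept cells of the same library, a description with no test because the rule chose these barcodes. Mitochondrial UMIs count in the total, at 16.3% to 45.2% in red-cell barcodes and 5.31% to 6.43% in kept cells. A higher mitochondrial share lowers the level of every other gene and so its ratio. Of 727 genes with at least 100 UMIs in every library, 27 (3.71%) had a ratio of over 10 in all 5 libraries and 147 (20.2%) a ratio of over 1. The median ratio of the 727 genes was 0.508 and 0.474 in Het, and 0.824, 0.424 and 0.491 in KO. The 20 genes with the highest lowest-library ratio held 2.66% to 3.35% of UMIs outside the globins, and 14 of them were in the erythroid lists. Those lists (haem and iron, membrane, late maturation, erythroid regulators) together held 5.60% and 6.59% in Het and 5.91%, 5.80% and 5.45% in KO. Het and KO overlapped (exact permutation p = 0.5). In the order given, 9, 7, 24 and 2 members of these lists were among the 727 genes. Of all members, 5, 8, 6 and 3 had a ratio to kept cells of under 1 in every library.

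Among haem and iron genes, Alas2, the first enzyme of haem synthesis in red cells, was at 7313 and 8272 UPM in Het and 5656, 6719 and 5618 in KO. In kept cells Alas2 was at 10.8 to 28.0 UPM, so its ratio was 261 to 624. Slc25a37, the mitochondrial iron importer mitoferrin, was at 2164 to 3434 UPM, and Fech, which inserts iron into haem, at 1656 to 2110. Their ratios to kept cells were 81.3 to 128 and 57.2 to 84.3. The ferritin genes Ftl1 and Fth1 were also abundant, at 9527 to 11825 and 3557 to 4649 UPM. Kept cells had ferritin too: the ratio was 2.94 to 3.50 for Ftl1 and 0.608 to 1.08 for Fth1. Blvrb, a biliverdin and flavin reductase, was at 581 to 920 UPM.

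Among membrane genes, Epb41, the skeleton protein 4.1, was highest at 1269 to 1519 UPM. Slc4a1, the band 3 anion exchanger, was at 364 and 402 in Het and 590, 452 and 352 in KO. Tspo2, an erythroid relative of the cholesterol-binding translocator protein, was at 171 and 229 in Het and 409, 283 and 257 in KO. For Tspo2 all KO libraries were above both Het libraries, but the gene did not pass the test across all genes given below (log2 fold change 0.45, SE 0.21, edgeR adjusted p = 0.425). Bsg, basigin, was at 575 to 777 UPM, with a ratio to kept cells of 0.708 to 0.992 on this scale. Mpp1, palmitoylated membrane protein p55, was at 162 to 228 UPM.

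Late maturation genes were led by Mkrn1, a makorin ubiquitin ligase, at 3996 to 5134 UPM, and the ubiquitin gene Ubb at 2884 to 3771. Bpgm, which makes the bisphosphoglycerate that lowers oxygen affinity of haemoglobin, was at 2009 to 2606 UPM. Gpx1, a glutathione peroxidase, and Bnip3l, the receptor for clearance of mitochondria from reticulocytes, were at 1983 to 2878 and 1829 to 2188. Regulators of transcription and translation were rare: E2f2 at 98.8 to 133, Lmo2 at 65.3 to 127, Foxo3 at 47.2 to 105, Cpeb4 at 23.8 to 163, Ldb1 at 18.9 to 31.5 and Hemgn at 14.5 to 39.0 UPM. In UPM the library of KO replicate 1, whose mitochondrial share was lowest, was highest for E2f2, Lmo2, Foxo3, Cpeb4 and Hemgn. In normalised counts per 1000000 (CPM, defined with the test across genes) E2f2 was lowest there, at 98.2 against 109 to 127. Genes of early and dividing precursors, summed over a list of 17, were at 0.284 to 0.526 times their level in kept cells.

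**Figure D3:**
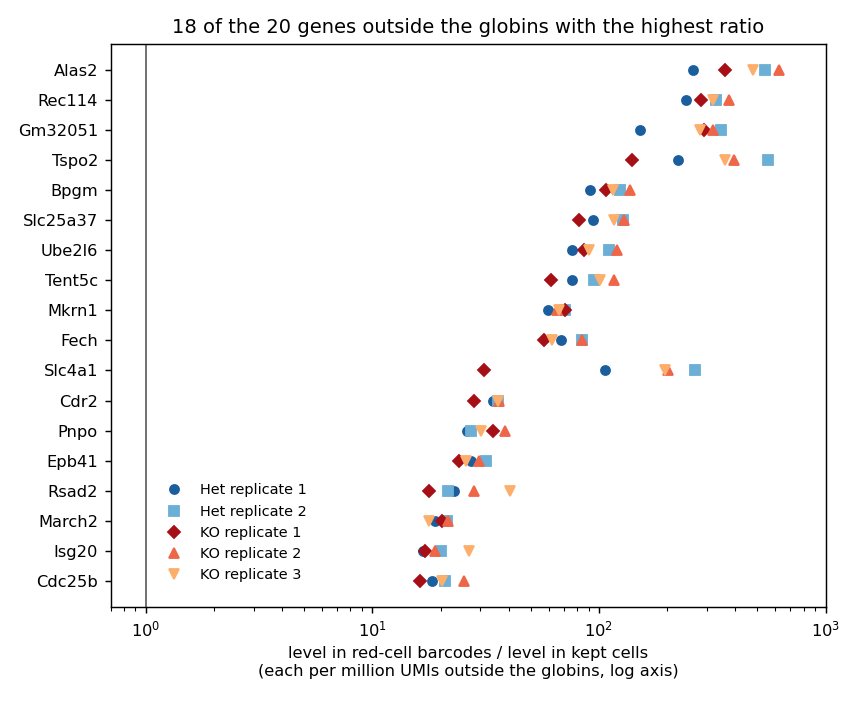
Ratio of the level in red-cell barcodes to the level in kept cells (x axis, log scale, each in UPM, UMIs per 1000000 UMIs outside the globins) for 18 of the 20 genes outside the globins with the highest lowest-library ratio. Points are the 5 libraries. All points lie above 16, and Alas2 reaches from 261 to 624.

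The other 6 of those 20 genes were in no list fixed for red cells. Rec114, known as a meiotic recombination factor, was at 375 and 370 UPM in Het and 510, 430 and 454 in KO, with a ratio of 242 to 375. Gm32051, a predicted gene, was at 63.4 to 109 UPM, with a ratio of 152 to 346. Cdr2, the gene of a coiled-coil autoantigen, was at 328 to 390, March2, a membrane ubiquitin ligase, at 791 to 1011, and Cdc25b, a cell cycle phosphatase, at 230 to 386. Rsad2, an interferon-induced antiviral enzyme, was at 330 and 210 in Het and 252, 104 and 133 in KO, so the groups overlapped on this scale.

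The gene with the highest mean level outside the globins was Gm42418 (chr17:39846958-39848788, plus strand). It overlaps AY036118 (chr17:39847113-39848035, minus strand), and both lie over an rRNA-like sequence. Gm42418 had a ratio to kept cells of 13.5 to 18.2. The 2 genes together took 10.9% and 13.7% of UMIs outside the globins in Het, and 8.50%, 8.54% and 7.87% in KO. The groups did not overlap (exact permutation p = 0.1, adjusted p = 0.4 over the 12 measures of other RNA).

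Mitochondrial transcripts took 36.9% and 34.0% of UMIs outside the globins in Het, and 16.3%, 45.2% and 39.98% in KO, with overlapping groups (exact permutation p = 1.0). Without KO replicate 1 the KO minus Het difference changed sign, from -1.69 to 7.09 percentage points. Ribosomal protein genes took 13.7% and 13.1% in Het and 22.9%, 11.3% and 13.0% in KO, and their difference also changed sign without that library, from 2.35 to -1.24 points. Reticulocytes lose mitochondria as they mature, but whether the mitochondrial share of these barcodes follows maturity was not tested. The red-cell barcodes of each library were ordered by mitochondrial share of UMIs outside the globins. They were then split into 4 groups of equal size. The comparison of the highest with the lowest group is a description, since barcodes of a library are not replicates.

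The highest group had 10.3 to 17.5 times the mitochondrial UMIs per barcode of the lowest, a difference set by the ordering. It had 0.896 to 1.07 times the globin UMIs. The UMIs of all genes other than globin and mitochondrial ones were at 0.897 to 0.996 times. Haem and iron genes together were at 0.802 to 0.963 times, late maturation genes at 0.709 to 0.821 and membrane genes at 0.705 to 0.861. Single genes differed in this ratio. Car2, the red-cell carbonic anhydrase, was at 0.182 and 0.0825 UMIs per barcode in the lowest and highest group of Het replicate 1, and its ratio over the 5 libraries was 0.329 to 0.576. The ratio was 0.446 to 0.593 for Gpx1, 0.409 to 0.688 for Slc4a1 and 0.605 to 0.728 for Prdx2, a peroxiredoxin of red cells. Bpgm was at 0.661 to 0.803. Other erythroid transcripts lay nearer to 1: the ratio was 0.802 to 1.06 for Alas2, 0.889 to 1.03 for Fech and 0.779 to 1.04 for Epb41. The Hbb-bt share of adult beta UMIs was lower in the highest group in all 5 libraries, by ratios of 0.895 to 0.933. In the lowest group it was 18.0% and 18.0% in Het and 19.0%, 20.1% and 20.1% in KO, and in the highest 16.4% and 16.4% in Het and 17.69%, 18.46% and 17.96% in KO. Het and KO did not overlap in either group. Both groups are parts of the same libraries, whose whole Hbb-bt shares did not overlap, so this is no separate support. The 9 lists of other cell types together were at 1.07 to 1.18 times in the highest group.

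**Figure D4:**
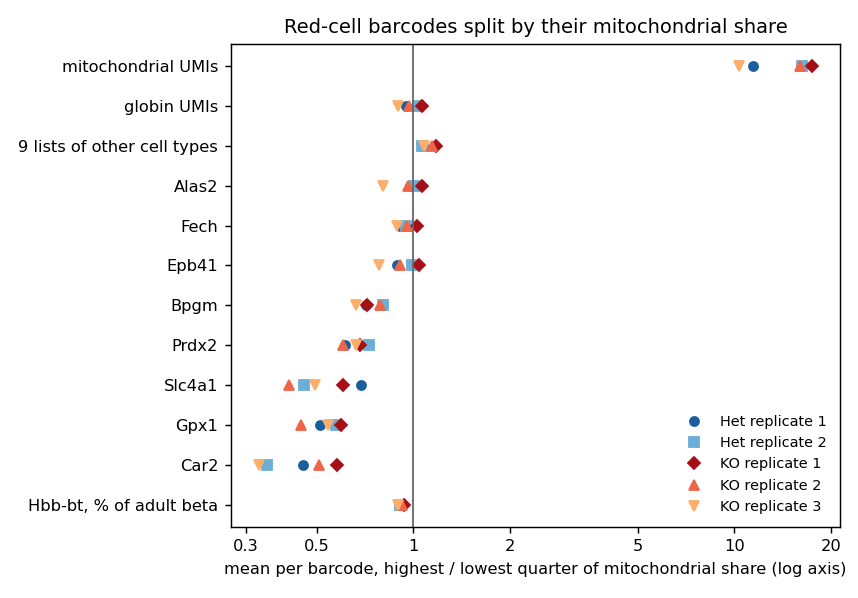
Mean per barcode in the highest over the lowest of 4 equal groups of red-cell barcodes ordered by mitochondrial share (x axis, ratio on a log scale). Points are the 5 libraries, and the last row is a share and not a UMI number. Mitochondrial UMIs, by which the groups were ordered, lie at 10.3 to 17.5. Globin UMIs and Alas2 lie near 1, and Slc4a1, Gpx1 and Car2 below 1 in every library.

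Red-cell barcodes also held transcripts of other lung cells, counted in 9 lists (platelets, alveolar and airway epithelium, endothelium, mesenchyme, macrophages and monocytes, neutrophils, lymphocytes, mast cells and basophils). Whether these are free RNA of the suspension or RNA of cells caught with a red cell was not tested. Alveolar epithelium gave the most, at 4672 and 3068 UMIs per 1000 barcodes in Het and 6691, 3078 and 3835 in KO (exact permutation p = 0.8). It was led by the surfactant gene Sftpc at 5136 to 9489 UPM, followed by the lysozyme gene Lyz2 at 239 to 643. At least 1 UMI of that list was in 89.6% to 99.5% of red-cell barcodes. Across the listed genes with at least 10 UMIs, levels in red-cell barcodes correlated with those in kept cells of the same library at 0.742 to 0.926 (Pearson, log2 scale, 72 to 100 genes), lowest in KO replicate 1. In that library they correlated at 0.955 with the other barcodes under 500 genes. These genes share the library and its depth.

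Neutrophil transcripts were at 1440 and 1103 UMIs per 1000 red-cell barcodes in Het, and at 445, 551 and 531 in KO, without overlap. The means were 1271 ± 238 (SD, n = 2) and 509 ± 56.6 (SD, n = 3; exact permutation p = 0.1, adjusted p = 0.4 over the 12 measures). S100a9 and S100a8, the calprotectin subunits, led the list. S100a9 was at 1450 and 1351 UPM in Het, and at 444, 620 and 507 in KO. In kept cells S100a9 was at 2305 and 2584 in Het and 1935, 2004 and 1637 in KO. Endothelial transcripts were at 491 and 333 UMIs per 1000 red-cell barcodes in Het and 282, 175 and 288 in KO, led by Cldn5 and Ramp2 (exact permutation p = 0.1, adjusted p = 0.4). Airway transcripts, led by the secretoglobins Scgb3a2 and Scgb1a1, were at 1486 and 1007 in Het and 951, 467 and 769 in KO (exact permutation p = 0.2). Platelet transcripts, led by Pf4 and Nrgn, were at 161 and 156 in Het and 67.6, 139 and 147 in KO (exact permutation p = 0.3). For these 4 lists the groups did not overlap.

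The other lists overlapped between groups. Mesenchymal transcripts, led by Sparc and the collagen gene Col3a1, were at 685 and 705 UMIs per 1000 barcodes in Het and 847, 524 and 1010 in KO (exact permutation p = 0.7). Macrophage and monocyte transcripts, led by Fabp5 and Tyrobp, were at 343 to 530 (exact permutation p = 0.4). Lymphocyte transcripts (Gzma, Cd79b) were at 9.57 to 33.7. Those of mast cells and basophils (Gata2, also in the list of early precursors, and Cma1) were at 8.34 to 24.4. In those last 2 lists up to 4 genes had no UMI in a library, and in the platelet list 6 had none in KO replicate 1.

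For single genes, UMIs were summed over the red-cell barcodes of a library, globins were left out, and Het and KO were compared with edgeR's quasi-likelihood test. Values in this comparison are normalised counts per 1000000 (CPM), scaled by the trimmed mean of M values. Of 8579 genes tested, 64 (0.746%) passed an adjusted p of 0.05, 8 (0.0933%) higher in KO and 56 (0.653%) lower. No gene of the 4 erythroid lists passed: 99 of their 111 genes were tested, with a median log2 fold change of 0.05 against 0.02 for all genes tested. Of those 99, 31 (31.3%) had groups that did not overlap, against 2641 (30.8%) of all genes. By list, the median log2 fold change was -0.07 for haem and iron, 0.07 for membrane, -0.02 for late maturation and 0.30 for erythroid regulators. In that order, 10 of 21, 18 of 28, 16 of 35 and 14 of 16 estimates were above 0, against 4449 of all 8579. None of the 20 genes with the highest ratio to kept cells passed either, and their median log2 fold change was -0.28. The nearest was Rsad2, at 357 and 235 CPM in Het and 186, 125 and 133 in KO (log2 fold change -1.01, SE 0.23, edgeR adjusted p = 0.0847). None of the 64 genes had a ratio to kept cells of over 2 in every library.

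Several lists of other lung cells held genes that passed. Of these, 6 of the 10 neutrophil genes tested fell (Camp, Lcn2, Retnlg, S100a8, S100a9 and Wfdc21), with a median log2 fold change of -1.52. So did 5 of 12 endothelial genes (Calcrl, Car4, Cldn5, Emcn and Ramp2), 2 of 10 airway genes (Scgb1a1 and Scgb3a1) and 3 of 18 alveolar genes (Aqp5, Chil1 and Lyz1). Of 3 lymphocyte genes tested, Gzma fell. Of 16 tested genes of early precursors, Cd34, also a marker of endothelium, fell. No gene of the platelet, mesenchymal, macrophage or mast cell lists passed. Outside the lists, 7 of 8 tested genes of the stefin A family fell, a family picked out after its values were seen. These are near-identical copies whose counts may be shared.

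The largest fall was that of Car4, a carbonic anhydrase on capillary endothelium, at 26.4 and 27.2 CPM in Het and 0.739, 4.78 and 1.89 in KO. These are 80 and 40 UMIs against 1, 7 and 3, with a log2 fold change of -3.38 (SE 0.41, edgeR adjusted p = 0.00407). In kept cells Car4 was at 74.8 and 85.0 CPM in Het and 3.99, 11.3 and 10.2 in KO (log2 fold change -3.22, edgeR adjusted p = 0.0224). Scgb3a1, an airway secretoglobin, was with 140 and 87 UMIs in Het (46.1 and 59.2 CPM) against 2, 2 and 19 UMIs in KO. Its log2 fold change was -3.31 in red-cell barcodes and -4.39 in kept cells. Prx, periaxin, was at 26.4 and 22.5 CPM against 2.95, 3.42 and 4.42, with log2 fold changes of -2.74, and -2.002 in kept cells. Every KO library was below every Het library for these 3 genes in red-cell barcodes, as their choice required, and also in kept cells.

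Ccl5, a chemokine of lymphocytes, and Gzma, granzyme A, fell by 2.64 and 2.43 on the log2 scale. Their kept-cell changes of -1.11 and -1.02 did not pass (edgeR adjusted p = 0.116 and 0.361). Wfdc21, at 53.7 and 59.2 CPM in Het and 6.65, 15.03 and 14.53 in KO, fell by 2.197, with -0.58 in kept cells (edgeR adjusted p = 0.0550). Csta3 of the stefin A family fell by 2.23, with -0.64 in kept cells. Tbx3, a transcription factor of lung mesenchyme, fell by 2.38. Ace, angiotensin-converting enzyme of endothelium, fell by 2.05 and Chil1, a chitinase-like protein, by 1.95. In kept cells these last 3 changed by -1.16, -1.31 and -2.15, past the threshold in each case.

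The 8 genes that rose were Ctnnd2, Inpp4b, Foxp2, H19, Col18a1, Ndrg1, Nav2 and Nfat5. H19, an imprinted long noncoding RNA, was at 182 and 194 CPM in Het and 735, 399 and 426 in KO (log2 fold change 1.47, SE 0.27, edgeR adjusted p = 0.0264). In kept cells H19 was at 256 and 356 CPM in Het and 977, 571 and 665 in KO (log2 fold change 1.27, edgeR adjusted p = 0.0549). Foxp2, a transcription factor of lung epithelium, was at 34.3 and 30.6 CPM in Het and 117, 135 and 79.6 in KO, a log2 fold change of 1.75. In kept cells it was at 60.3 and 56.5 in Het and 94.1, 130 and 115 in KO, a change of 0.95. Ctnnd2, delta-catenin, rose by 2.17, with 11 and 9 UMIs in Het (3.62 and 6.13 CPM) and 38, 22 and 30 in KO. Inpp4b, a phosphoinositide phosphatase, rose by 2.12, with 16 and 10 UMIs in Het (5.27 and 6.81 CPM) and 47, 30 and 35 in KO. In kept cells Ctnnd2 rose by 0.96 (edgeR adjusted p = 0.0360). Inpp4b changed by 0.48 there and did not pass (edgeR adjusted p = 0.0590). Col18a1, a basement membrane collagen, rose by 1.42, and by 1.33 in kept cells. Ndrg1, Nav2 and Nfat5, the last a transcription factor of osmotic stress, rose by 1.26, 1.13 and 1.05 and did not pass in kept cells, where their changes were 0.27, 0.14 and 0.24.

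**Figure D5:**
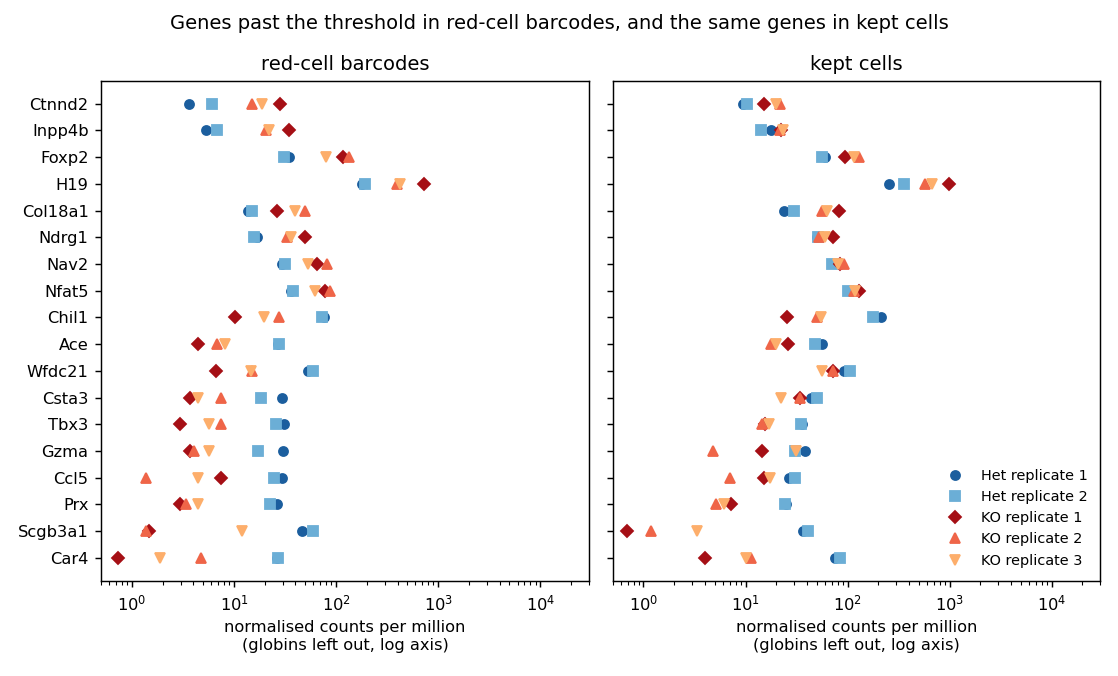
Normalised counts per 1000000, CPM (x axes, log scale, globins left out) of the 18 named genes that passed in red-cell barcodes, with the level in red-cell barcodes on the left and in kept cells on the right. Points are libraries, blue for Het and red to orange for KO. On the left every KO library lies to one side of both Het libraries for each gene, as the choice of genes required. On the right, which had no part in that choice, the gap is narrow or closed for Nav2, Ndrg1, Gzma and Nfat5.

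With sex as a covariate 0 of the 64 passed (555 genes at an unadjusted p under 0.05, lowest edgeR adjusted p = 0.2095). In that fit genotype is estimated from the only male KO library against the Het libraries, which were both male. All 64 genes had groups that did not overlap, so that KO library already lay on the KO side. Their kept direction in this fit is therefore no support. The log2 fold changes of the 64 genes with that covariate were 0.607 to 1.16 times those without it, with a median of 0.925. Without Het replicate 1, 0 genes passed (616 at an unadjusted p under 0.05), and without Het replicate 2, 14 did. Either fit leaves 1 Het library, which is then assumed to vary like the KO libraries. Without KO replicate 1, 236 passed, and without KO replicate 2, 40. Sex cannot be separated from genotype in full here, since no Het embryo was female.

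Whether the genotype difference in red-cell barcodes differed from that in kept cells of the same libraries was tested with a genotype by compartment term. By edgeR 0 of 8579 genes (0.0%) passed, with 696 at an unadjusted p under 0.05 and a lowest adjusted p of 0.519, and by DESeq2 0 passed with 407 at an unadjusted p under 0.05. Without KO replicate 1, 64 passed by edgeR, 41 with a higher and 23 with a lower difference. For the 18 genes named above the term ran from -1.64 (Wfdc21) to 1.67 (Inpp4b) on the log2 scale. Those genes were picked by their change in red-cell barcodes, so their terms are a description. A difference between the 2 kinds of barcode was thus not called with all 5 libraries, which does not show that the changes were equal.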

How the data were processed

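The members and the gene lists were chosen with earlier results of these data known. The deposited values are raw UMI counts. For them the authors used Cell Ranger 4.0.0 and build mm10, per the submitters' processing notes. The annotation and the filter on barcodes are not given in the sources used here. Barcodes, gene identifiers and symbols were read from the deposited files. Red-cell barcodes held 5540713 to 20064750 UMIs per library. No doublet caller was run. Counts were summed per library over red-cell barcodes, without globins, and compared with edgeR 4.0.16 (R 4.3.3, filterByExpr, TMM, quasi-likelihood, two-sided, Benjamini-Hochberg adjusted p under 0.05). The genotype by compartment term used the library as a block. Single values per library were compared with exact permutation tests over 10 arrangements. Labels give 1 embryo per library, so n counts embryos.

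Genes were named by rule: all globins, the 6 highest members of each erythroid list, the 20 genes with the highest lowest-library ratio to kept cells (at least 100 UMIs in each library), the 2 highest of each list of other cells, and, of genes past the threshold with no overlap between groups and a higher mean of at least 20 CPM, up to 10 per direction by size of change. Sex-linked and mitochondrial genes were left out of the last. Car2 and Prdx2, the other called genes of the lists and Zswim8 were added after their values were seen. Some genes that the rule names are not reported here. Of 257 listed genes, 3 had no row. Alternatives were DESeq2 1.42.0, library size alone, other low-count filters, a replicate block, sex as a covariate, stricter barcode limits and each library left out. Leaving out barcodes rich in embryonic globin, or mitochondrial genes with Gm42418 and AY036118, and, for single values, barcodes over 15% mitochondrial, were chosen after seeing the data. The fits were tested on simulated data. Gene coordinates are from GENCODE M21, to which 32235 of 32285 gene IDs matched. Promoters are from RefSeq, all 6 matched by symbol. Intervals and limits cover counting error only.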

Additional observations from a re-analysis of the deposited data

How the results depend on the processing

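The 64 genes past the threshold in red-cell barcodes became 30 with library size alone (which moved the median log2 fold change of all genes from 0.02 to 0.22), 319 with all genes of at least 1 count, 0 with sex as a covariate and 0 to 236 with 1 library left out. DESeq2 gave 49, and the other settings 47 to 65. With a replicate block 361 passed, but only 2 numbers are shared (correlations of deviations 0.167 and 0.105) and no label ties them to a litter or day, so they do not pair the embryos. The genotype by compartment count of 0 became 51 with all genes of at least 1 count, 4 with the other barcodes under 500 genes as the comparator, and 0 to 64 with 1 library left out. The 18 named genes were picked for groups that did not overlap, and the refits draw on the same libraries. Their kept direction in all 314 refits is therefore no support, and 78 of those refits did not pass.

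No single value per library could pass 0.05, since the smallest p of the exact permutation test was 0.1. Of 246 alternatives for 24 such values, 12 reversed the KO minus Het difference. Under 300 genes the Hbb-bs share differed by 0.211 points. Over 80% globin, the median UMIs differed by 168 and platelet UMIs per 1000 barcodes by 5.86. As a median over barcodes the embryonic share differed by 0. With 1 library left out, the difference ran from -0.825 to 0.468 points for Hba-a1, from -0.000426 to 0.0138 for embryonic globin, from -12.2 to 91.3 for UMIs outside the globins, from -0.868 to 0.117 points for the erythroid share, from -414 to 1466 for alveolar and from -10.04 to 233 for mesenchymal UMIs per 1000 barcodes, from -7.38 to 7.09 points for the mitochondrial and from -1.24 to 4.55 for the ribosomal protein share. The cause of these changes was not tested.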
